A study of Mus musculus with 32 samples.

Results

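F-box proteins are the substrate-reading parts of SCF ubiquitin ligases. The F-box, a short protein domain, binds the adaptor Skp1, which joins it to the scaffold Cul1 and the RING protein Rbx1, and the rest of the F-box protein picks the target that is tagged for the proteasome. The family is named by that second region, with WD40 repeats in Fbxw proteins, leucine-rich repeats in Fbxl proteins and other or no known domains in Fbxo proteins. In oocytes, protein breakdown by SCF ligases and by the anaphase-promoting complex paces meiosis, and rodents carry in addition a set of Fbxw genes with high numbers that is known for expression in the oocyte. The members described here were chosen by name: every gene of the table whose symbol is Fbxo, Fbxw or Fbxl followed by digits, without Fbxo43. That gave 71 of 13175 genes, of which 17 are Fbxl, 32 are Fbxo, 7 are Fbxw genes with numbers below 13, and 15 are Fbxw13 and higher.

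RNA was measured in 32 single oocytes of wild-type mice, 1 library per oocyte, with a SMART-Seq kit for low input. Preantral follicles had been vitrified or left fresh and were then grown in culture, and 4 groups resulted. Metaphase II (MII) oocytes, 12 from vitrified and 12 from fresh follicles, were collected on day 9 of culture, after ovulation was induced with the hormone hCG. Germinal vesicle (GV) oocytes, 4 from vitrified and 4 from fresh follicles, were collected on day 8. GV oocytes are arrested in prophase I, and MII oocytes have completed the first meiotic division. Strain, age of the mice, and the animal or culture behind each oocyte are not given in the sources used here, so p-values measure the spread between these oocytes only, and all oocytes grew in follicle culture, the fresh ones included.

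The libraries held 5300208 to 12206512 counts in MII vitrified oocytes, 6196976 to 10142902 in MII fresh, 11159677 to 16554201 in GV vitrified and 10357543 to 17687247 in GV fresh oocytes. Levels are given as CPM, counts per 1000000 after scaling of library sizes, and are thus shares of a library and not RNA per oocyte. As background, this kind of kit primes on poly(A) tails, so the amount of an RNA and the length of its tail cannot be told apart. All GV values in the table are whole numbers, while 11.7% to 19.7% of the values of each MII oocyte are not. Stage and the way of counting can therefore not be told apart, above all for genes with near-identical copies. Nor can stage be told apart from hCG, the day of collection or the run of library numbers. Those numbers were 2 to 25 in MII and 81 to 85 in GV oocytes. Of 15 oocyte markers, 14 were in the table, none was at 0 in a whole group, and their sum ran from 19621 to 60822 CPM over all oocytes. Of 24 cumulus and granulosa markers, 21 were in the table; their sum ran from 57.6 to 137 CPM in GV oocytes, and MII fresh oocyte 11 (3190 CPM) and MII vitrified oocyte 12 (622 CPM) lay above 3 times the MII median.

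Of the 15 genes numbered Fbxw13 and higher, 14 form an array on chromosome 9, at chr9:109139447-109790670 of GRCm38, a stretch of 651 kb with every gene on the minus strand (GENCODE M21). In order of position the genes are Fbxw21, Fbxw13, Fbxw20, Fbxw14, Fbxw28, Fbxw22, Fbxw16, Fbxw19, Fbxw15, Fbxw24, Fbxw25, Fbxw18, Fbxw26 and Fbxw27. The remaining gene, Fbxw17, lies on chromosome 13, at chr13:50417864-50433780 on the plus strand. Over the 91 pairs within the array, the coding sequences were 79.1% to 99.1% identical, with a median of 84.3%, whereas Fbxw17 was 47.8% to 51.2% identical to the array genes. Fbxw14 and Fbxw28 are neighbours and differ at 13 of 1398 aligned coding bases. The 60 coding bases in which this pair differs most are shown for both genes, for Fbxw22, their closest relative, and for Fbxw24, the most abundant array gene in GV oocytes; they are coding bases 794 to 853 of the GENCODE transcripts, 5′ to 3′, with capitals at the bases that differ from Fbxw28.
Fbxw28: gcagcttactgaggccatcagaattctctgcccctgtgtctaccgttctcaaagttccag
Fbxw14: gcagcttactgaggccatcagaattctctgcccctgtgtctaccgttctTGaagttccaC
Fbxw22: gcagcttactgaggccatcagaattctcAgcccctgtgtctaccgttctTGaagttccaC
Fbxw24: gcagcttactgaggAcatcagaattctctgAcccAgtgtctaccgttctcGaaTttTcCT
In this stretch Fbxw14 differs from Fbxw28 at 3 bases, Fbxw22 at 4 and Fbxw24 at 8, and Fbxw28, Fbxw14 and Fbxw22 share long runs without a difference.

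The start regions of the array genes are alike as well. RefSeq promoter windows (GRCm38.p6), 250 bases before to 50 after the start, were at hand for 11 of the 14 array genes and were 83.1% to 97.7% identical over 55 pairs, with a median of 91.3%. The window of Fbxw17 was 43.5% to 50.5% identical to them. The windows of Fbxw24, Fbxw28, Fbxw14 and Fbxw15, array genes that moved differently between the stages, and of Fbxw17 are printed 5′ to 3′ on the strand of the gene, with capitals at the letters TTTAAA and CAGCTG. They lie at chr9:109626010-109626309, chr9:109339610-109339909, chr9:109287627-109287926, chr9:109568213-109568512 (all minus strand) and chr13:50417614-50417913 (plus strand).
Fbxw24: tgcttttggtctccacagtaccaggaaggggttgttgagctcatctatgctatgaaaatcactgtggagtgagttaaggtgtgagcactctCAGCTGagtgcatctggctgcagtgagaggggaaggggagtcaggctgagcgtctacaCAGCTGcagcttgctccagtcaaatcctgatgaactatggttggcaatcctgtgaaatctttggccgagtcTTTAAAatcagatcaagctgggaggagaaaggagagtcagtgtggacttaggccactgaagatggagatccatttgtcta
Fbxw28: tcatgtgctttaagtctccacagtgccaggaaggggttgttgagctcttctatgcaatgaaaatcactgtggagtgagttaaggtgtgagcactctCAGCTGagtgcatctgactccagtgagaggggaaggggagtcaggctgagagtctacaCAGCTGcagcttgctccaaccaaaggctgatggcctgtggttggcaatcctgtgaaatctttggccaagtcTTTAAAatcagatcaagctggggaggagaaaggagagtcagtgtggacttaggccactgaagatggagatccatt
Fbxw14: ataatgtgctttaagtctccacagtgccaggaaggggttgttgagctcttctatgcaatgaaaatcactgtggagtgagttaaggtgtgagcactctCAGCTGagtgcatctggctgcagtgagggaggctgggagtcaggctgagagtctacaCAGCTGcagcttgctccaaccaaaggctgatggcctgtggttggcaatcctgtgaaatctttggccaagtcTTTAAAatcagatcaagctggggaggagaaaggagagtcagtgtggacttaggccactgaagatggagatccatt
Fbxw15: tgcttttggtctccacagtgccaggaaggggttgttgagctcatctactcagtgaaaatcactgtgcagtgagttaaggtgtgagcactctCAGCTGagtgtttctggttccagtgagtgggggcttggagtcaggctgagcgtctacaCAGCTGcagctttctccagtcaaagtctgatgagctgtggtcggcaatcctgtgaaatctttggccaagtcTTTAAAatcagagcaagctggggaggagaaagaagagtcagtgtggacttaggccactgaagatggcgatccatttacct
Fbxw17: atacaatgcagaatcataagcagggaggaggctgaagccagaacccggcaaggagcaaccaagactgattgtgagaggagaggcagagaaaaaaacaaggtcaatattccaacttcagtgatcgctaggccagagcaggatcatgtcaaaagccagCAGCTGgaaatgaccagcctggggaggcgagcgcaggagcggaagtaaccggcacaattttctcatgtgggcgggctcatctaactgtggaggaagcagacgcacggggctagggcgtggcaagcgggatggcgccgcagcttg
TTTAAA occurred at 1 place in 10 of the 11 array windows, beginning 10 to 54 bases before the start, against 13.2% of 27025 RefSeq promoter windows that hold it anywhere. CAGCTG, a form of the E-box, occurred in all 11 array windows, at 2 places in 10 of them, with the nearer one 80 to 125 bases before the start, against 16.1% of all windows. TATAAA and TAATTG were in 0 of the 11 array windows, against 14.2% and 8.15% of all windows. Both strands were searched. The 4 motifs were picked after the array windows had been read, and TTTAAA and TATAAA can overlap in part; windows of paralogs share their descent and are not independent cases.

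The array was the most abundant part of the F-box set in GV oocytes. Per kb of exon, all 14 array genes ranked above each of the other 57 members in both GV groups, with Fbxw24 first (mean level 3201 CPM per kb in GV vitrified and 1657 in GV fresh oocytes) and the first gene outside the array, Fbxl6, at 115 and 106 CPM per kb. In MII oocytes the order was different: Fbxw28 was first, with 3244 CPM per kb in MII vitrified and 3512 in MII fresh oocytes, followed by Fbxw24 (2217 and 2469) and Fbxw14 (2156 and 2467), and Fbxl6, Fbxw4 and Fbxo8 ranked above several array genes. Fbxw17 stood apart from the array in level too, with 4.83 ± 1.86 CPM in MII vitrified, 6.74 ± 2.65 in MII fresh, 16.1 ± 4.25 in GV vitrified and 16.9 ± 3.62 in GV fresh oocytes (mean ± SD, n = 12, 12, 4 and 4).

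The array as a whole took 1.06% to 3.40% of the counts of an MII oocyte and 0.803% to 5.42% of those of a GV oocyte. Its summed level was 11354 to 32824 CPM in MII vitrified oocytes (median 18428) and 11760 to 37923 CPM in MII fresh oocytes (median 19472). In GV vitrified oocytes 1 to 4 it was 54136, 14587, 7789 and 13614 CPM, and in GV fresh oocytes 1 to 4 it was 11038, 8286, 28221 and 6271 CPM. The stages overlap, and GV vitrified oocyte 1 and GV fresh oocyte 3 stand above the other 6 GV oocytes, in the sum and in every one of the 14 genes. They are also the smallest GV libraries, with 11159677 and 10357543 counts, against 14497464 to 17687247 in the other 6. Their summed oocyte markers are the highest of the GV oocytes, at 31418 and 35483 CPM, against 19621 to 30287 CPM in the others. In these oocytes Ccnb1 RNA, which encodes cyclin B1, was also highest of its group, at 2442 and 1475 CPM, against 453 to 1208 CPM in the other GV vitrified and 384 to 799 CPM in the other GV fresh oocytes; the part of depth, oocyte markers and Ccnb1 in the array level was not tested. With the Fbxw13-and-higher genes added to 1 row, the stage difference was −0.24 ± 0.37 in vitrified oocytes and 0.68 ± 0.40 in fresh oocytes (log2 fold change MII over GV ± SE, quasi-likelihood test of edgeR, adjusted p = 0.61 and 0.15).

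**Figure D1:**
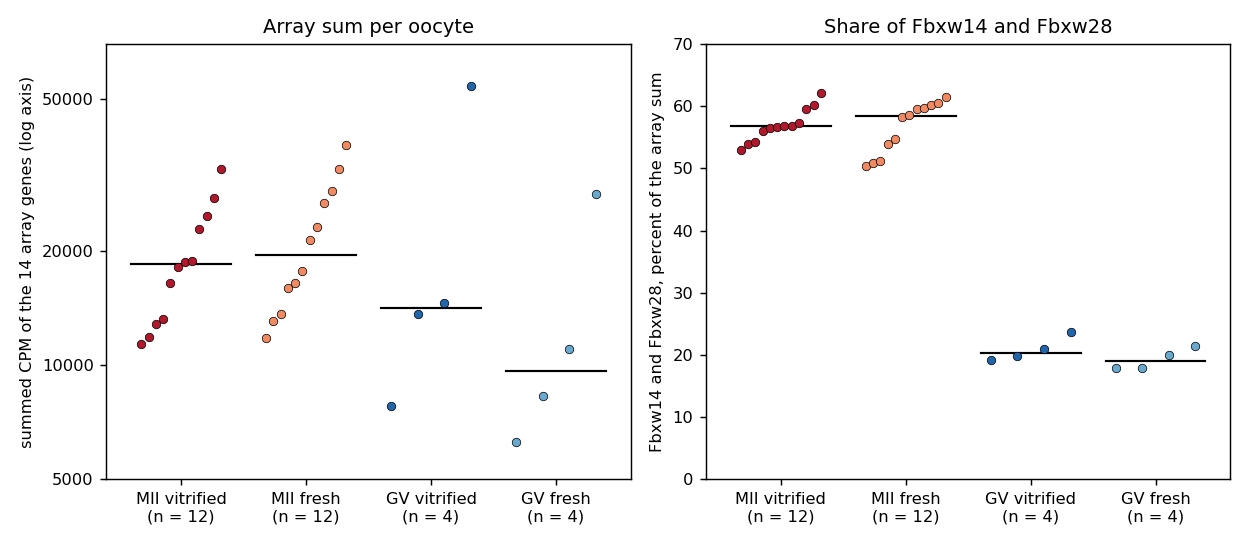
Left, summed level of the 14 array genes in each oocyte (CPM, log axis); right, the part of that sum held by Fbxw14 and Fbxw28 (percent). Points are oocytes in rank order within a group and lines are medians. The sums of the stages overlap, with 2 high GV oocytes at 54136 and 28221 CPM, while the share is 50.4% to 62.1% in MII and 17.8% to 23.8% in GV oocytes.

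Single array genes moved in opposite directions between the stages. Fbxw28, Fbxw22 and, in fresh oocytes, Fbxw14 were higher in MII oocytes, while Fbxw13, Fbxw15, Fbxw21, Fbxw25, Fbxw26 and Fbxw27 were lower in MII oocytes of both treatments and Fbxw16 and Fbxw18 in vitrified ones. Of the 14 array genes, 2 rose and 8 fell in vitrified oocytes and 3 rose and 6 fell in fresh oocytes at an adjusted p under 0.05, where over all 11470 genes tested 23.3% rose and 33.7% fell in vitrified and 22.8% rose and 29.8% fell in fresh oocytes. The median log2 fold change of the array was −1.78 and −0.68, against −0.34 and −0.23 over all genes tested. Single GV oocytes moved these values: without GV vitrified oocyte 1 the median in vitrified oocytes was −1.06 (3 rose and 8 fell), and without GV fresh oocyte 3 that in fresh oocytes was 0.019 (6 rose and 5 fell, with −0.16 over all genes). Changes are given here and in what follows as log2 fold changes of MII over GV ± SE, for vitrified and then for fresh oocytes, from 1 fit of all 32 oocytes.

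Fbxw28 had 3380 to 11719 CPM in MII vitrified oocytes (median 6072) and 4096 to 11110 in MII fresh oocytes (median 6379). Its GV levels were 6656, 1655, 869 and 1711 CPM in vitrified oocytes 1 to 4 and 1123, 926, 3096 and 710 CPM in fresh oocytes 1 to 4. Every MII fresh oocyte lay above every GV fresh oocyte, and every MII vitrified oocyte lay above all GV vitrified oocytes but oocyte 1. The change was 1.22 ± 0.41 in vitrified (adjusted p = 0.011) and 2.23 ± 0.44 in fresh oocytes (5.87e-05, edgeR). Its near-copy Fbxw14 had 2773 to 8049 CPM in MII vitrified (median 4335) and 2965 to 8155 in MII fresh oocytes (median 4802). The GV oocytes had 6201, 1231, 623 and 1141 CPM in GV vitrified and 845, 558, 2946 and 549 CPM in GV fresh oocytes. Its groups overlap through GV vitrified oocyte 1 in vitrified oocytes and do not overlap in fresh ones. Its change of 0.99 ± 0.44 in vitrified oocytes missed the threshold (adjusted p = 0.056, edgeR) and that of 2.09 ± 0.48 in fresh oocytes passed it (0.00038, edgeR). Fbxw22 rose by 1.09 ± 0.36 in vitrified and 1.81 ± 0.38 in fresh oocytes (adjusted p = 0.011 and 0.00014, edgeR), to means of 1362 and 1188 CPM in MII oocytes, against 640 and 338 CPM in GV oocytes. Together Fbxw14 and Fbxw28 made up 50.4% to 62.1% of the array sum in MII oocytes and 17.8% to 23.8% in GV oocytes, with no overlap.

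The rises in vitrified oocytes rest on few GV oocytes. Without GV vitrified oocyte 2, 3 or 4, the change of Fbxw28 was 1.05, 0.92 and 1.05 (adjusted p = 0.053, 0.069 and 0.054, edgeR), and without oocyte 2 or 3 that of Fbxw22 was 0.95 and 0.80 (0.051 and 0.071). Without GV vitrified oocyte 1, the change of Fbxw14 was 2.20 and passed the threshold. The library numbers in the labels fall into a class under 20 and a class of 20 and over, with 7 and 5 MII oocytes of each treatment; with the second class alone, Fbxw28 was at 0.90 and Fbxw22 at 0.94 (adjusted p = 0.17 and 0.11). All 3 genes had values that are not whole in 22 or 23 of the 24 MII oocytes, as did Fbxw20 in 23 and Fbxw16 in 20, whereas Fbxw18, Fbxw19, Fbxw24, Fbxw25 and Fbxw26 were whole in every MII oocyte and Fbxw13 in all but 1. Of the genes that fell, Fbxw27, Fbxw21 and Fbxw15 had values that are not whole in 14, 13 and 7 of the 24 MII oocytes. For the 3 that rose, and for those that fell, a change of stage and a change in how shared reads were counted cannot be told apart.

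Fbxw13 was the array gene with the largest fall. It had 6.88 to 28.6 CPM in MII vitrified and 9.91 to 61.3 CPM in MII fresh oocytes. Values in GV oocytes were 733, 282, 203 and 236 CPM in GV vitrified and 115, 92.5, 391 and 109 CPM in GV fresh oocytes. No MII oocyte reached a GV oocyte, and the fold change was −4.30 ± 0.38 in vitrified and −2.77 ± 0.38 in fresh oocytes (adjusted p = 9.16e-12 and 1.16e-07, edgeR). Fbxw21, Fbxw26 and Fbxw27 likewise had no overlap between the 24 MII and the 8 GV oocytes. Fbxw26 had 46.0 to 149 CPM in MII vitrified and 41.2 to 166 CPM in MII fresh oocytes. At the GV stage it had 2258, 570, 269 and 555 CPM in GV vitrified and 471, 328, 1277 and 284 CPM in GV fresh oocytes, a change of −3.49 ± 0.36 and −2.59 ± 0.36. Fbxw15, known to be expressed in the oocytes of the mouse ovary, had 115 to 452 CPM in MII vitrified (median 277) and 172 to 972 CPM in MII fresh oocytes (median 398). In GV oocytes it had 5571, 1640, 1129 and 1447 CPM in GV vitrified and 1369, 1092, 3195 and 595 CPM in GV fresh oocytes. Its groups overlap only in the fresh oocytes, and it fell by 3.09 ± 0.38 and 1.88 ± 0.38 on the log2 scale (adjusted p = 1.2e-08 and 8.76e-05, edgeR). The fall of Fbxw25 in fresh oocytes, −1.36 ± 0.42, was −0.83 without GV fresh oocyte 3 (adjusted p = 0.14, edgeR).

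Fbxw24, Fbxw19 and Fbxw20 did not pass the threshold of edgeR in either treatment over all genes and oocytes. Fbxw24, studied in mouse for a role in meiotic prophase, had 1642 to 5284 CPM in MII vitrified (median 3294) and 1723 to 7455 CPM in MII fresh oocytes (median 2787). The GV oocytes had 12916, 2524, 1297 and 2318 CPM in GV vitrified and 2049, 1457, 5105 and 1250 CPM in GV fresh oocytes. Its groups overlap widely, and its change was −0.53 ± 0.42 in vitrified and 0.58 ± 0.44 in fresh oocytes (adjusted p = 0.29 in each, edgeR). Without GV fresh oocyte 3 the fresh value was 1.23 (adjusted p = 0.038), and likewise Fbxw19 and Fbxw20 were then 1.54 and 1.10 (0.0077 and 0.049). In a fit over the genes that are whole in every MII oocyte, Fbxw24 and Fbxw19 passed it in fresh oocytes as well (1.36 and 1.62, adjusted p = 0.019 and 0.0048, edgeR), and limma-voom called Fbxw19 there (1.01, adjusted p = 0.022). Without GV vitrified oocyte 1 and GV fresh oocyte 3 together, a choice made after seeing the data, 4 array genes rose and 8 fell in vitrified oocytes and 6 rose and 5 fell in fresh oocytes. Fbxw17, outside the array, fell by 1.74 ± 0.44 and 1.32 ± 0.44 on the log2 scale (adjusted p = 0.0011 and 0.012, edgeR); its MII and GV oocytes do not overlap, and without GV fresh oocyte 3 the fresh value was −1.19 (adjusted p = 0.051). In the fit over genes whole in every MII oocyte, Fbxw17 was −0.90 in vitrified and −0.53 in fresh oocytes (adjusted p = 0.10 and 0.38, edgeR). In that fit the calls of Fbxw18 in vitrified oocytes (−0.49, adjusted p = 0.29, edgeR) and of Fbxw25 in fresh oocytes (−0.58, adjusted p = 0.31, edgeR) ended too. Libraries were scaled anew over its genes, and all values given from it lay higher than in the main fit.

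**Figure D2:**
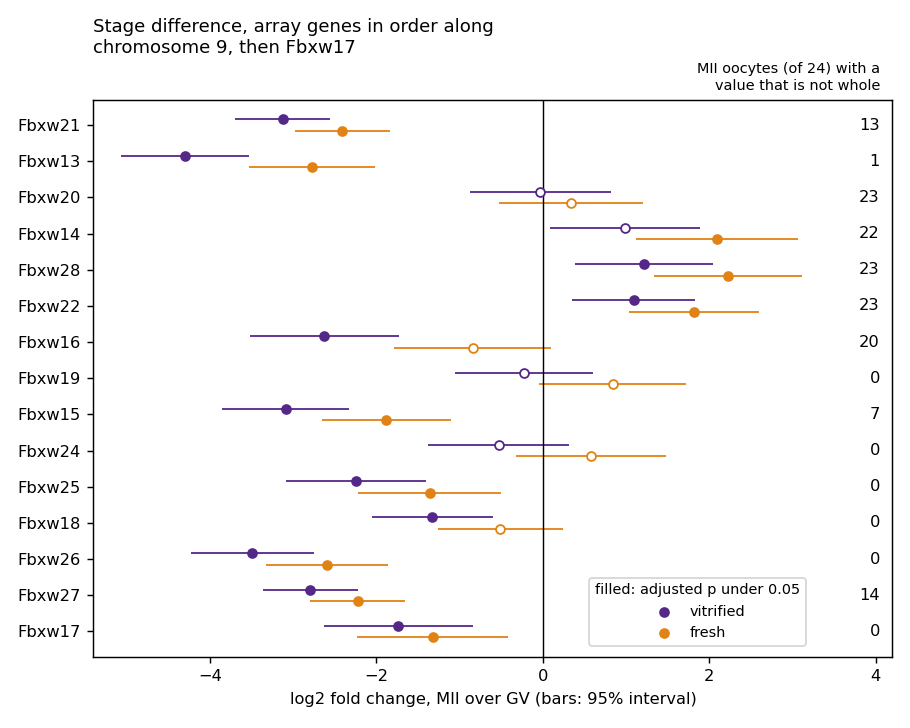
Log2 fold change of MII over GV for the 14 array genes in their order along the chromosome and for Fbxw17, in vitrified and fresh oocytes, with 95% intervals; filled points have an adjusted p under 0.05, and the number at the right counts the MII oocytes with a value that is not whole. Fbxw14, Fbxw28 and Fbxw22, neighbours in the array, lie above 0, and 8 array genes lie below 0 in both comparisons.

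Over all 71 members, 67 could be tested between the stages, and 18 rose and 21 fell in MII oocytes of each treatment, which is 58.2% of those tested beside 57.0% of all genes in vitrified and 52.6% in fresh oocytes. Thus the members as a set moved about as often as other genes. Of them, 14 rose in both treatments, 19 fell in both, 0 moved in opposite directions, 6 were called in vitrified and 6 in fresh oocytes only, and 22 in neither. Those called in vitrified oocytes only were Fbxl12, Fbxo6, Fbxo7, Fbxw2, Fbxw16 and Fbxw18, and those in fresh oocytes only were Fbxl6, Fbxl17, Fbxo30, Fbxo46, Fbxw7 and Fbxw14, yet none of the 67 differed between the treatments in the interaction test. Calls of genes not described further ended without single oocytes: Fbxw2 without GV vitrified oocyte 1 or 4, Fbxo7 without GV vitrified oocyte 1 or 3, Fbxl17 without GV fresh oocyte 1, 2 or 4 or MII fresh oocyte 2 or 3, and Fbxo46 without GV fresh oocyte 2 or 4. Among the 52 tested members outside the Fbxw13-and-higher set, 16 rose and 12 fell in vitrified and 15 rose and 14 fell in fresh oocytes, with a median log2 fold change of 0.21 and 0.37 against −0.34 and −0.23 over all genes. Their summed level was 3885 to 5527 CPM in MII vitrified and 3092 to 4739 CPM in MII fresh oocytes, against 1996 to 2296 CPM in GV vitrified and 1715 to 2180 CPM in GV fresh oocytes, with no overlap. A few abundant genes weigh most in this sum, among them Fbxl5, Fbxo8, Fbxw4 and Fbxl6. The MII values of these were not whole in 22, 22, 21 and 20 of 24 oocytes. Fbxo27, Fbxo4, Fbxo44 and Fbxo48 were not tested for low counts, and Fbxo27 was at 0 in all 8 GV oocytes. Every gene of the deposited table had 10 or more counts over the MII oocytes, so an F-box gene lost entirely by MII would not be among the members.

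**Figure D3:**
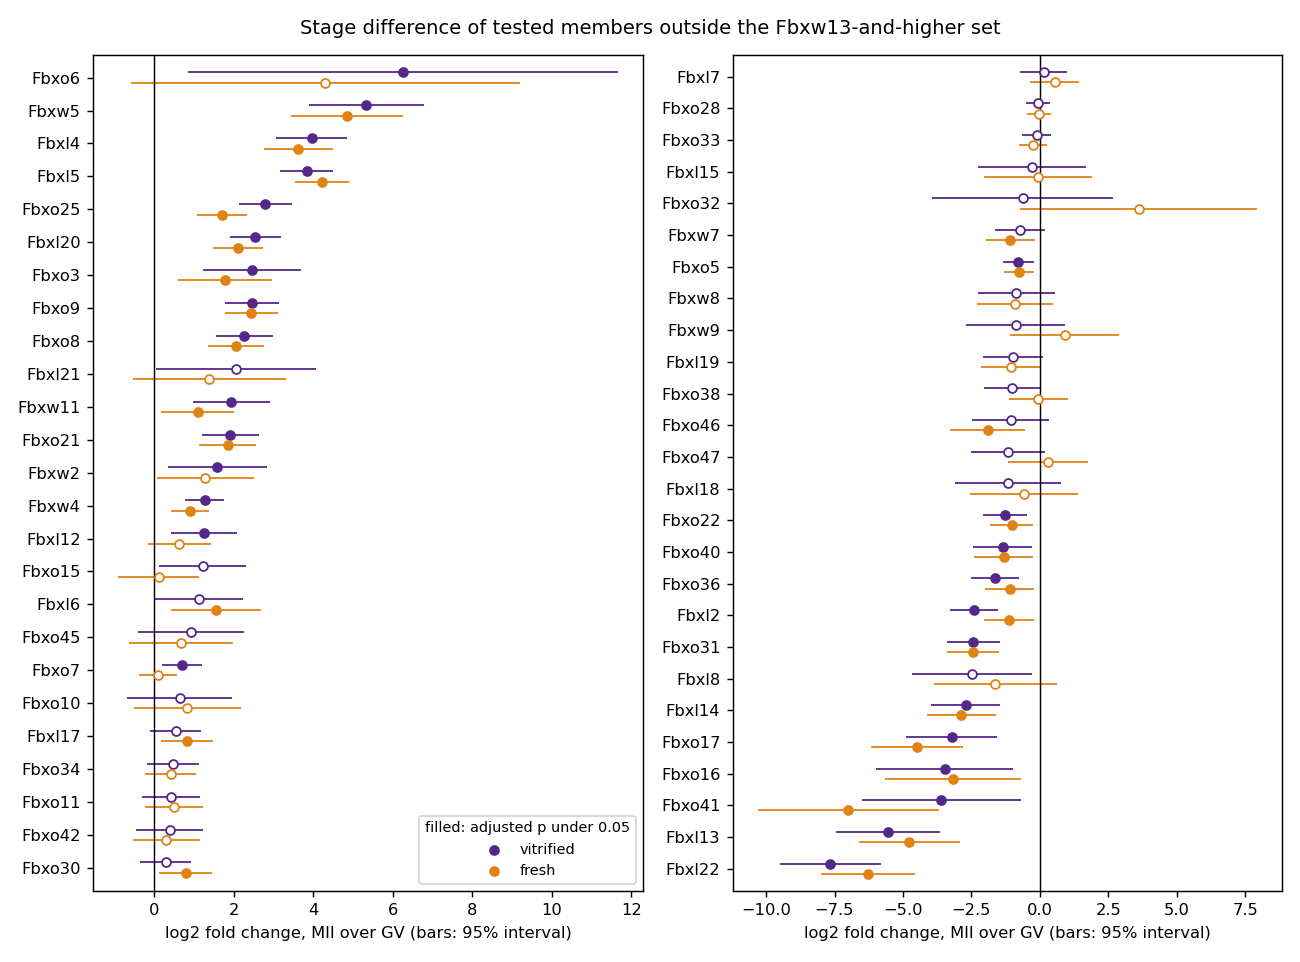
Log2 fold change of MII over GV for 51 of the 52 tested members outside the Fbxw13-and-higher set, sorted by the vitrified value, with 95% intervals; filled points have an adjusted p under 0.05. Fbxl5, Fbxl4 and Fbxw5 are near or above 4 in both comparisons and Fbxl22 and Fbxl13 lie below −4; the value of Fbxo41 in fresh oocytes is no estimate of size, since it was at 0 in all 12 MII fresh oocytes.

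Among the Fbxl genes, 5 of 17 rose and 4 fell in vitrified and 6 rose and 4 fell in fresh oocytes. That is 52.9% and 58.8% of those tested, beside 57.0% and 52.6% of all genes. The largest rises were those of Fbxl5, the iron-sensing adaptor that targets the iron regulatory protein IRP2, and of Fbxl4, a mitochondrial member known to restrain mitophagy. Fbxl5 had 476 to 1016 CPM in MII vitrified (median 801) and 349 to 754 CPM in MII fresh oocytes (median 564). Values in GV oocytes were 115, 46.7, 22.8 and 35.7 CPM in GV vitrified and 28.7, 23.6, 41.6 and 24.998 CPM in GV fresh oocytes. Every MII oocyte lay above every GV oocyte, and the change was 3.84 ± 0.33 in vitrified and 4.23 ± 0.34 in fresh oocytes (adjusted p = 4.95e-12 and 1.24e-12, edgeR). Fbxl4 had 65.7 to 159 CPM in MII vitrified (median 96.6) and 46.8 to 112 CPM in MII fresh oocytes (median 77.9). At the GV stage it had 15.5, 5.08, 1.78 and 4.41 CPM in GV vitrified and 9.88, 2.70, 6.91 and 5.12 CPM in GV fresh oocytes, again without overlap, and rose by 3.97 ± 0.44 and 3.63 ± 0.43. Both had values that are not whole in 22 of 24 MII oocytes.

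Fbxl20, known from synapses, rose by 2.55 ± 0.32 and 2.12 ± 0.31, with means of 335 and 290 CPM in MII vitrified and fresh oocytes and 57.1 and 66.6 CPM in GV vitrified and fresh oocytes. Fbxl6 passed the threshold in fresh oocytes only, with 1.55 ± 0.56 (adjusted p = 0.019) beside 1.14 ± 0.54 in vitrified ones (0.073, edgeR), and its call in fresh oocytes ended without GV fresh oocyte 1 or without oocyte 3. Its MII values were not whole in 20 of 24 oocytes.

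The falling Fbxl genes were lower in level. Fbxl22, known from the Z-disc of heart muscle cells, had 0 to 1.24 CPM in MII vitrified (median 0) and 0 to 2.15 CPM in MII fresh oocytes (median 0.194). The GV oocytes had 7.51, 27.8, 100.3 and 30.7 CPM in GV vitrified and 21.2, 31.9, 33.0 and 54.4 CPM in GV fresh oocytes. Fbxl13 had 0 to 1.34 CPM in MII vitrified and 0 to 1.65 CPM in MII fresh oocytes. Values in GV oocytes were 25.7, 11.5, 17.8 and 7.65 CPM in GV vitrified and 11.5, 11.9, 13.9 and 9.48 CPM in GV fresh oocytes. Neither gene overlaps between the stages, and the changes were −7.65 ± 0.91 and −6.27 ± 0.84 for Fbxl22 and −5.55 ± 0.93 and −4.77 ± 0.90 for Fbxl13. Fbxl14, an adaptor for the transcription factor Snail, fell by 2.70 ± 0.62 and 2.86 ± 0.62, with means of 2.76 and 2.92 CPM in MII vitrified and fresh oocytes and 18.1 and 21.3 CPM in GV vitrified and fresh oocytes. Fbxl2 fell by 2.41 ± 0.44 and 1.13 ± 0.45, and the call in fresh oocytes ended without GV fresh oocyte 2 or 3 or MII fresh oocyte 10.

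Among the Fbxo genes, 7 of 28 tested rose and 8 fell in vitrified and 6 rose and 9 fell in fresh oocytes. That is 53.6% in each treatment, beside 57.0% and 52.6% of all genes. Fbxo8, a member with a Sec7 domain, was the most abundant of the risers. It had 393 to 715 CPM in MII vitrified (median 574) and 368 to 607 CPM in MII fresh oocytes (median 482). At the GV stage it had 243, 95.7, 47.4 and 76.4 CPM in GV vitrified and 81.6, 50.3, 263.5 and 66.8 CPM in GV fresh oocytes. The stages do not overlap, and the 2 highest GV values are those of the oocytes that were high in the array; the change was 2.28 ± 0.35 and 2.07 ± 0.34 (adjusted p = 1.03e-06 and 4.74e-06, edgeR). Fbxo9, which targets the kinase-stabilising proteins Tel2 and Tti1, rose by 2.46 ± 0.33 and 2.45 ± 0.33 and Fbxo25 by 2.80 ± 0.33 and 1.70 ± 0.31, both without overlap between the stages. Fbxo21 rose by 1.91 ± 0.35 and 1.85 ± 0.35, and Fbxo3, known to target Fbxl2, by 2.47 ± 0.61 and 1.79 ± 0.58. MII values were not whole in 22 of 24 oocytes for Fbxo8, 20 for Fbxo9, 18 for Fbxo21, 7 for Fbxo3 and 4 for Fbxo25. Fbxo3 spread widely in MII oocytes, over 14.5 to 273 CPM in vitrified and 10.3 to 252 CPM in fresh ones, against 13.2 to 40.3 and 19.3 to 37.1 CPM in GV vitrified and fresh oocytes. In MII fresh oocytes it had 91.1 to 252 CPM with library numbers under 20 and 10.3 to 75.7 CPM with those of 20 and over. In MII vitrified oocytes these classes had 84.9 to 273 and 14.5 to 127 CPM. With the second class alone, the call of Fbxo3 in fresh oocytes ended.

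Fbxo6, which binds glycoproteins of the endoplasmic reticulum, was called up in vitrified oocytes on few counts: 196 counts over 12 MII oocytes, of which most held none, and 1 count over 4 GV oocytes. It had 9.91, 8.78 and 4.23 CPM in MII vitrified oocytes 12, 1 and 7 and at most 0.353 CPM in the other 9. These 3 oocytes were also the highest of their group in cumulus and granulosa markers, with summed levels of 622, 172 and 234 CPM, against 69.3 to 144 CPM in the other 9. Among MII fresh oocytes the highest Fbxo6 levels, 16.7 CPM in oocyte 11 and 4.54 CPM in oocyte 1, likewise stood beside the highest marker sums (3190 and 193 CPM, against 60.8 to 111 CPM in the other 10). The part of these markers in the rise was not tested, and without MII vitrified oocyte 12 and MII fresh oocyte 11 the counts of Fbxo6 were too low for it to enter the fit. The ratio of the scaled totals was 194, with a 95% interval of 34.4 to 7691 that covers counting error only, and the call ended without any 1 of the 4 GV vitrified oocytes and without MII vitrified oocyte 1, 7 or 12 (adjusted p = 0.052 to 0.10, edgeR). Fbxo41, a neuronal member, was at 0 in all 12 MII fresh oocytes and had 0.932, 1.91, 1.84 and 1.67 CPM in GV fresh oocytes, so it was at least 48.5-fold lower, taking a limit of 3 counts over the group. In vitrified oocytes it had a median of 0 in MII oocytes (highest 2.98 CPM), and its change of −3.59 ± 1.41 was −1.94 without GV vitrified oocyte 3 (adjusted p = 0.33, edgeR). Fbxo17 fell by 3.22 ± 0.82 and 4.49 ± 0.83 and Fbxo31, an adaptor for cyclin D1, by 2.42 ± 0.48 and 2.44 ± 0.47. Fbxo16 was near 0 everywhere (highest value 4.82 CPM); its calls of −3.48 and −3.17 ended without GV vitrified oocyte 4 (adjusted p = 0.15) and without GV fresh oocyte 2 or 3 (0.059 and 0.19). Fbxo22, Fbxo36 and Fbxo40, the last known from muscle, fell in both treatments by 1.03 to 1.64 on the log2 scale; single oocytes ended calls of Fbxo22 (without GV fresh oocyte 1 or 4), Fbxo36 (without GV fresh oocyte 3 or MII fresh oocyte 4, 7, 8 or 10) and Fbxo40 (without GV fresh oocyte 1 or 3 and, in the vitrified comparison, without GV vitrified oocyte 2).

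Fbxo5, the inhibitor Emi1 of the anaphase-promoting complex, had 33.3 to 92.4 CPM in MII vitrified (median 48.5) and 24.3 to 69.4 CPM in MII fresh oocytes (median 43.8). In GV oocytes it had 140.3, 104.5, 71.8 and 63.3 CPM in GV vitrified and 92.9, 47.4, 85.9 and 87.1 CPM in GV fresh oocytes. The groups overlap in both treatments, and the change was −0.78 ± 0.28 and −0.76 ± 0.28 (adjusted p = 0.016 and 0.020, edgeR). In a fit over the genes that are whole in every MII oocyte, the change of Fbxo5 was 0.055 and 0.044, and its call ended without GV vitrified oocyte 1 or 2 (adjusted p = 0.14 and 0.054) and without GV fresh oocyte 1, 3 or 4 (0.075, 0.056 and 0.061). Fbxo30, described in mouse oocytes for chromosome segregation, had means of 111 and 96.7 CPM in MII vitrified and fresh oocytes and 90.8 and 55.8 CPM in GV vitrified and fresh oocytes. Its change was 0.29 ± 0.31 in vitrified oocytes and 1.12 without GV vitrified oocyte 1 (adjusted p = 0.0019); in fresh oocytes it was 0.79 ± 0.32 (adjusted p = 0.039), a call that ended without any of GV fresh oocytes 1, 2 and 4 or MII fresh oocytes 2, 3 and 8 (0.052 to 0.16). Fbxo34, described for the resumption of meiosis, did not pass the threshold, with 0.47 ± 0.32 and 0.42 ± 0.32 (adjusted p = 0.21 and 0.28, edgeR). Fbxo15, known from embryonic stem cells, had 1.22 ± 0.54 in vitrified and 0.12 ± 0.50 in fresh oocytes (adjusted p = 0.051 and 0.86); without GV vitrified oocyte 1 the first was 1.86 (0.012). Fbxo28 was close to level, at −0.08 ± 0.21 and −0.03 ± 0.21, with means of 216 and 194 CPM in MII vitrified and fresh oocytes and 228 and 197 CPM in GV vitrified and fresh oocytes. MII values were not whole in 18 of 24 oocytes for Fbxo30, 16 for Fbxo34, 12 for Fbxo28 and 4 for Fbxo15.

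Of the 7 Fbxw genes with low numbers, 4 rose in vitrified oocytes, and 3 rose and 1 fell in fresh oocytes. That is 57.1% in each treatment, beside 57.0% and 52.6% of all genes. Fbxw5, an adaptor for Eps8, had the largest rise among them. It had 3.34 to 25.5 CPM in MII vitrified (median 15.5) and 10.4 to 29.5 CPM in MII fresh oocytes (median 21.8). The GV oocytes had 0.0895, 0.302, 0.607 and 0.456 CPM in GV vitrified and 0.0810, 1.66, 0.921 and 0.108 CPM in GV fresh oocytes. No GV oocyte reached an MII oocyte, its MII values were all whole, and the change was 5.34 ± 0.71 and 4.85 ± 0.69 (adjusted p = 7.96e-08 and 3.01e-07, edgeR). Fbxw4, known from limb development, rose by 1.28 ± 0.24 and 0.91 ± 0.24, to means of 587 and 537 CPM in MII vitrified and fresh oocytes, against 242 and 286 CPM in GV vitrified and fresh oocytes, also without overlap. Its MII values were not whole in 21 of 24 oocytes. Fbxw11, the paralog of Btrc that targets β-catenin and IκB, rose by 1.95 ± 0.48 in vitrified oocytes; its 1.09 ± 0.45 in fresh oocytes (adjusted p = 0.040) missed the threshold without GV fresh oocyte 2, 3 or 4 and without MII fresh oocyte 6, 8, 10 or 12 (0.050 to 0.15). Fbxw7, the adaptor for cyclin E and Myc, had means of 6.57 and 5.45 CPM in MII vitrified and fresh oocytes and 10.8 and 11.5 CPM in GV vitrified and fresh oocytes. Its change was −0.72 ± 0.45 (adjusted p = 0.17) and −1.08 ± 0.44 (0.040, edgeR), and the call in fresh oocytes ended in the fit over genes whole in every MII oocyte (−0.27, adjusted p = 0.67), without GV fresh oocyte 1 or 4 (0.10 and 0.37) and without MII fresh oocyte 1, 4, 6, 7, 8 or 10 (0.051 to 0.063).

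**Figure D4:**
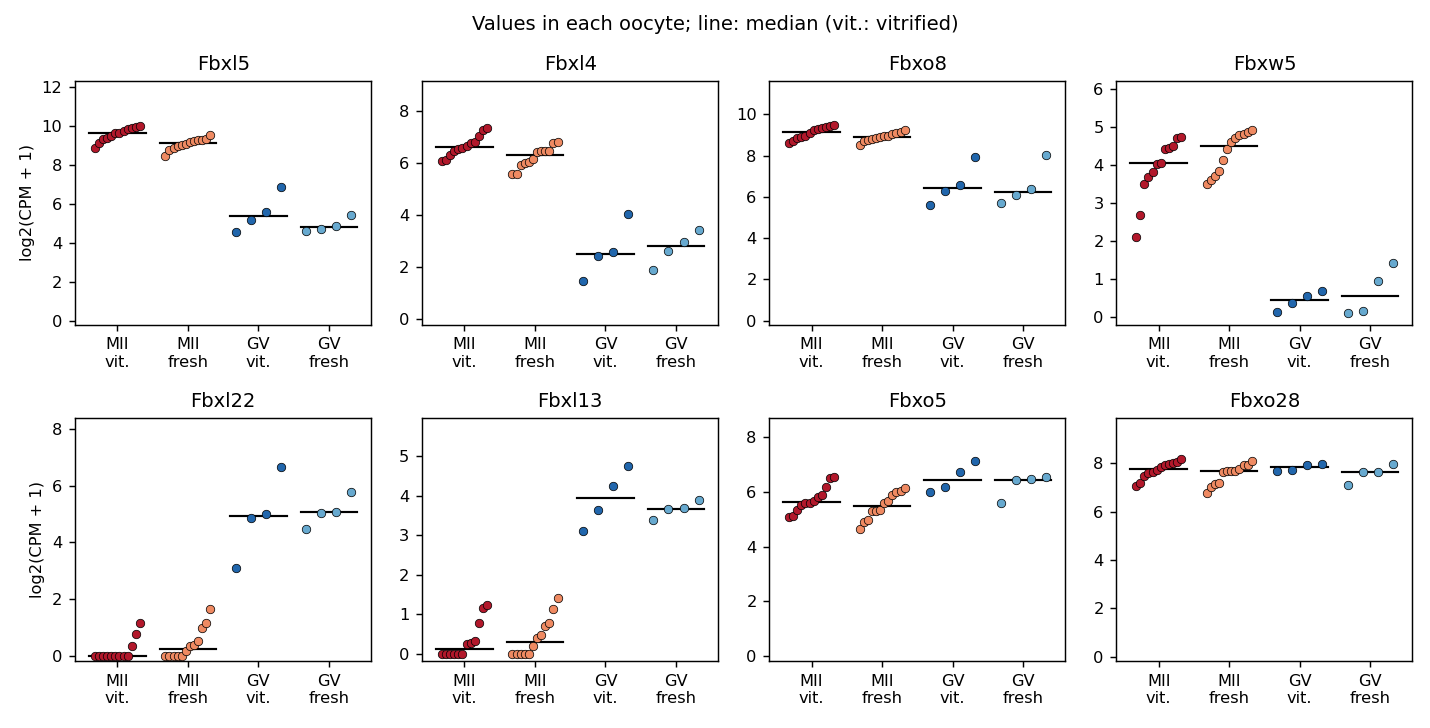
Level of 8 members in each oocyte as log2(CPM + 1), by group; points are oocytes in rank order within a group and lines are medians. Fbxl5, Fbxl4, Fbxo8 and Fbxw5 are higher in every MII oocyte than in any GV oocyte, Fbxl22 and Fbxl13 are lower in every MII oocyte, Fbxo5 overlaps, and Fbxo28 has means of 216, 194, 228 and 197 CPM in the 4 groups from left to right.

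The rest of the ligase changed in both directions as well. Of 34 genes listed for the SCF core and the control of cullins, 31 were tested. Of these, 9 rose and 14 fell in vitrified and 9 rose and 12 fell in fresh oocytes. Over all genes tested, 23.3% rose and 33.7% fell in vitrified and 22.8% rose and 29.8% fell in fresh oocytes. The medians of the list were −0.55 and −0.18 beside −0.34 and −0.23 over all genes. Cul1, the scaffold that all SCF ligases share, had 2576 to 5770 CPM in MII vitrified (median 3767) and 2142 to 4577 CPM in MII fresh oocytes (median 2810), against means of 776 ± 281 and 674 ± 153 CPM in GV vitrified and fresh oocytes (SD, n = 4 each), a rise of 2.34 ± 0.25 and 2.13 ± 0.24. Uba3, a subunit of the enzyme that activates the ubiquitin-like protein Nedd8, rose by 2.48 ± 0.30 in each treatment, and Ube2d2a, a ubiquitin-conjugating enzyme, by 2.48 ± 0.25 and 2.38 ± 0.25. Of the subunits of the COP9 signalosome, which removes Nedd8 from cullins, only some are given here. Cops8 rose by 2.14 ± 0.21 and 1.62 ± 0.21, while Cops4 fell by 3.57 ± 0.30 and 3.00 ± 0.30 and the catalytic Cops5 by 2.55 ± 0.27 and 1.89 ± 0.27. Skp1 was not analysed here.

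F-box genes that carry other names gave 5 tested of 8 listed, of which 1 rose and 3 fell in each treatment. Of all genes tested, 23.3% rose and 33.7% fell in vitrified and 22.8% rose and 29.8% fell in fresh oocytes. Skp2, the adaptor for p27, rose by 3.04 ± 0.40 and 2.14 ± 0.38, with means of 49.7 and 38.8 CPM in MII vitrified and fresh oocytes and 5.99 and 8.79 CPM in GV vitrified and fresh oocytes. Btrc, whose targets include Fbxo5, fell by 2.17 ± 0.23 and 1.80 ± 0.23, while its paralog Fbxw11 rose as given above; Kdm2b and Ccnf fell in both treatments. Of 18 known SCF substrates, 17 were tested and 6 rose and 3 fell in each treatment, beside the shares of all genes given above. Ireb2, which encodes IRP2, the target of Fbxl5, had means of 220 and 227 CPM in MII vitrified and fresh oocytes and 139 and 111 CPM in GV vitrified and fresh oocytes and rose by 0.66 ± 0.20 and 1.03 ± 0.20 (adjusted p = 0.0044 and 4.54e-05, edgeR). Ctnnb1, which encodes β-catenin, rose by 1.47 ± 0.28 and 1.37 ± 0.28. Cpeb1, an RNA-binding regulator of poly(A) tails that is broken down during maturation, fell by 1.09 ± 0.21 and 1.40 ± 0.21. These are RNA levels, and protein was not measured.

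Cytoplasmic polyadenylation elements are short signals near the end of an RNA through which tails are lengthened in maturing oocytes. TTTTAT or TTTTAAT in the last 100 bases, in transcripts with AATAAA or ATTAAA in the last 50, was found in 34.1% of the genes that rose and 10.0% of those that fell in vitrified oocytes, and in 32.7% and 10.3% in fresh oocytes; the sense strand was searched and the 2 signals may overlap. Of the 55 tested members with a hexamer, 7 held such an element, namely Fbxl20, Fbxo25, Fbxw4, Fbxo5, Fbxw17, Fbxo32 and Fbxo33, and it was also found in Fbxo27 and Fbxo4, which were not tested. The first 3 rose in both treatments and Fbxo5 and Fbxw17 fell in both. Among the array genes with a hexamer it was in 0 of 13, beside 12.7% of all such members and 20.8% of all tested genes with a hexamer. The array genes share their sequence and are not 13 independent cases. Several have few bases after the coding part (55 in Fbxw13 and 62 in Fbxw28, but 404 in Fbxw22), so the window of 100 bases reaches into coding sequence there.

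Vitrification of the follicle was compared with fresh culture within each stage. No member passed the threshold in either stage: edgeR called 0 of 57 tested members in MII oocytes and 0 of 65 in GV oocytes, beside 0.0% of 8428 and 0.0% of 10831 genes. DESeq2 and limma-voom called 0 members as well. Over all genes DESeq2 called 37 of 8428 in MII and 0 of 10831 in GV oocytes, and limma-voom called 0 in each. At an unadjusted p under 0.05, 8 members differed in MII and 0 in GV oocytes, beside 12.5% and 1.66% of all genes tested. Of the members tested, 64.9% in MII oocytes had a 95% interval within ±1 on the log2 scale (63.8% of all genes). In GV oocytes 7.69% of the members did (18.9% of all genes). For most members in GV oocytes a difference of 2-fold or more could therefore not be excluded.

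The smallest p-values among the members in MII oocytes were those of Fbxl5, Fbxo9 and Fbxl4, all higher in vitrified oocytes. Fbxl5 averaged 785 ± 174 CPM in MII vitrified and 557 ± 109 CPM in MII fresh oocytes (SD, n = 12 each), a difference of 0.51 ± 0.13 on the log2 scale, and failed the adjustment over all genes (adjusted p = 0.19, edgeR). Fbxo9 differed by 0.42 ± 0.14 and Fbxl4 by 0.45 ± 0.17 (adjusted p = 0.26 and 0.29, edgeR), and the ranges of all 3 genes overlap between the treatments. In GV oocytes the smallest p-values were those of Fbxo40 (−0.75 ± 0.36), Fbxw13 (1.07 ± 0.53) and Fbxo47 (1.5 ± 0.78), each with an adjusted p of 1.0.

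The array leaned in opposite directions in the 2 stages without any gene passing the threshold. In MII oocytes 12 of the 14 array genes lay below 0 (vitrified over fresh), with a median of −0.25 beside −0.05 over all genes, and in GV oocytes all 14 lay above 0, with a median of 0.72 beside 0.0024. The sign of the lean in GV oocytes depended on which libraries were left out: without GV vitrified oocyte 1, 11 of the 14 lay below 0 and 3 above, with a median of −0.19. Without GV fresh oocyte 3 the median was 1.37, and without both of these oocytes, which hold the highest array sums, all 14 lay above 0 with a median of 0.48. Genes of the array share their sequence and their libraries and are not independent cases. In the summed row, the difference was −0.16 ± 0.21 in MII and 0.77 ± 0.61 in GV oocytes (adjusted p = 0.78 and 1.0, edgeR). For the interaction of stage with treatment, 0 of 67 members were called, 4 had an unadjusted p under 0.05 beside 4.07% of all genes, and the smallest p-values were those of Fbxo25 (1.10 ± 0.40, adjusted p = 0.95), Fbxw13 (−1.53 ± 0.59) and Fbxw16 (−1.78 ± 0.70), the last 2 with an adjusted p of 0.99 and 1.0 in edgeR. The 3 lists of ligase genes and substrates also gave 0 calls in either stage and in the interaction.

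**Figure D5:**
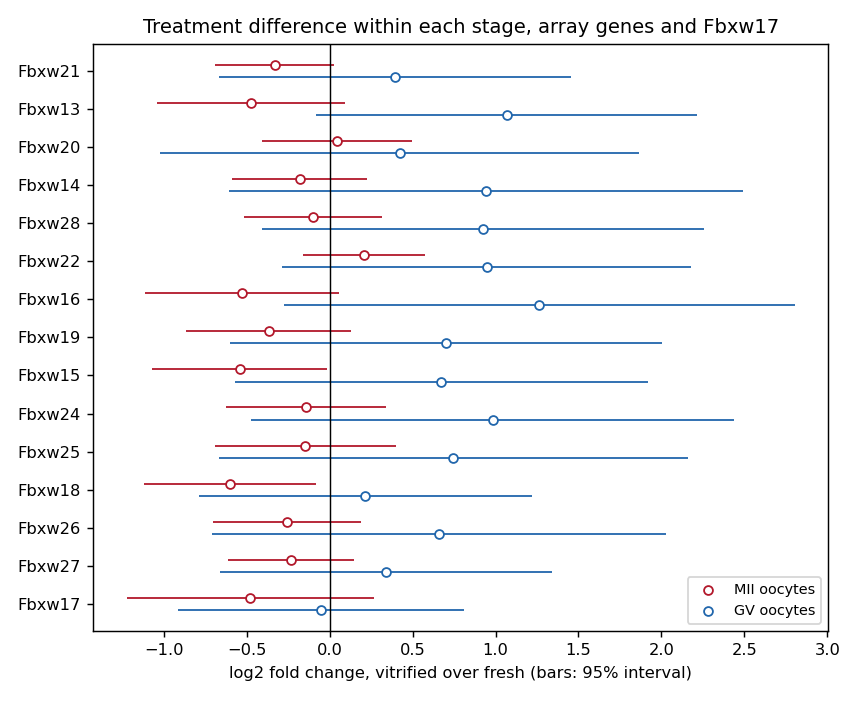
Log2 fold change of vitrified over fresh for the array genes and Fbxw17, in MII and in GV oocytes, with 95% intervals; open points have an adjusted p of 0.05 or more. In MII oocytes 12 of 14 array genes lie below 0 and in GV oocytes all 14 lie above 0 (3 without GV vitrified oocyte 1), with intervals that are wider in GV oocytes.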

How the data were processed

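The deposited table holds gene counts of the 32 oocytes; per the submitters' processing notes, HISAT2, featureCounts and mm10 were used, and no version or setting is named. Values of GV oocytes in the deposited table are whole counts. The deposited MII values were taken as estimated counts, since part of them is not whole, and the step behind that is not stated in the sources at hand. Because the planned tests need counts, every value was rounded. The 13202 entries held 27 exact repeats, which were removed. All 71 members matched GENCODE M21 and RefSeq by symbol.

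The function filterByExpr (at least 10 counts, total of at least 15) set the genes tested, library sizes were scaled with TMM, and CPM use the scaled sizes. Differences were tested with the two-sided quasi-likelihood test of edgeR 4.0.16 in R 4.3.3, with Benjamini-Hochberg adjustment over all genes tested and a threshold of 0.05. For the stage comparisons and the interaction all 32 oocytes entered 1 model, and for each treatment comparison only its 2 groups did. Errors are SE for log2 fold changes and SD for levels. DESeq2 1.42.0, limma-voom 3.58.1, other scalings and filters, and fits without single oocytes were tried as alternatives. The tests were tried on simulated data. Sequences were aligned with mafft 7.526.

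Members, lists and tests were chosen with earlier results of these data known. Named were the 10 members with the largest rise and the 10 with the largest fall among those called per stage comparison, the 3 with the smallest p per treatment comparison and interaction, all Fbxw13-and-higher genes, Fbxo5, Fbxw7, Fbxw11, Fbxo30, Fbxo34, Fbxo15 and Fbxl5, and up to 4 genes with the smallest p per list; other members were named after their values were seen; 1 member stays in the counts but is not reported here. The lists of theca and stroma and of blood markers gave sums of at most 16.9 and 11.2 CPM per oocyte.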

Additional observations from a re-analysis of the deposited data

Results flagged for a closer look

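In groups of 4 GV oocytes, the highest or lowest oocyte was set against the others with Dixon's test at 95%, over 84 groups (the named genes and the array sum). It marked 19. The rate of about 1 in 20 groups holds for independent, normally distributed values. The test was run on CPM, whose distribution was not checked, and many of the genes are paralogs measured in the same oocyte. The 19 can therefore not be set against that rate. GV vitrified oocyte 1 was far above the other GV vitrified oocytes in 9 array measures: the array sum (54136 CPM), Fbxw13 (733 CPM), Fbxw14 (6201 CPM), Fbxw15 (5571 CPM), Fbxw16 (5989 CPM), Fbxw24 (12916 CPM), Fbxw25 (931 CPM), Fbxw26 (2258 CPM) and Fbxw28 (6656 CPM). Fbxo30 (209 CPM) and Fbxw7 (21.1 CPM) were far above the others in the same oocyte. GV fresh oocyte 3 was far above the other GV fresh oocytes in Fbxw13 (391 CPM), Fbxw14 (2946 CPM), Fbxw21 (1950 CPM) and Fbxo8 (263.5 CPM). Low values stood apart for Fbxo3 in GV fresh oocyte 4 (19.3 CPM) and for Fbxo5 in GV fresh oocyte 2 (47.4 CPM). Fbxo6 was above 0 in GV vitrified oocyte 2 (0.0503 CPM) and GV fresh oocyte 3 (0.369 CPM) and at 0 in the other GV oocytes. A lone value above 0 in a group is always marked, whatever its size. MII groups, with 12 oocytes each, were not tested in this way.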

How the results depend on the processing

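The main limit is the small number of GV oocytes and the unknown counting of MII values. Leaving out 1 oocyte at a time gave 34 to 41 called members in vitrified and 32 to 39 in fresh oocytes between the stages, and 0 to 0 in the treatment comparisons and the interaction. In a fit over the genes whole in all MII oocytes, 28 members could be tested and 13 (7 up, 6 down) and 11 (6 up, 5 down) were called in vitrified and fresh oocytes, in part because fewer genes were tested. That fit scaled libraries over its own genes, and every gene whose value in it is given here lay higher than in the main fit. In fresh oocytes Fbxw19 went from 0.84 to 1.62, Fbxw24 from 0.58 to 1.36, Fbxw17 from −1.32 to −0.53 and Fbxw25 from −1.36 to −0.58. Of the calls of the main fit, 12 in vitrified and 10 in fresh oocytes could be tested in it, and 3 and 4 were lost. Gained were 4 and 5 calls. The part of the new scaling in these changes was not tested. All other alternatives stayed within 1.5 times the reported counts. Scaling shifted all genes: with plain library sizes, chosen after seeing the data, the median of all genes was −0.81 and −0.61, against −0.34 and −0.23, and 14 members rose and 27 fell in vitrified and 14 rose and 25 fell in fresh oocytes. Between vitrified and fresh oocytes of equal replicate number, correlations of deviations were −0.43 to 0.23 over GV pairs and −0.35 to 0.30 over MII pairs. Oocytes of unequal number were not compared, so these values cannot decide whether replicate numbers pair oocytes. With the replicate number as a block, 17 members rose and 21 fell in vitrified, 16 rose and 16 fell in fresh oocytes, and 0 were called elsewhere. Without the 2 MII oocytes high in cumulus markers, 20 rose and 21 fell in vitrified and 18 rose and 21 fell in fresh oocytes.

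Over all fits without 1 oocyte, the stage change in vitrified oocytes ran from −0.52 to 0.54 for Fbxw19, from −0.32 to 0.85 for Fbxw20 and from −0.85 to 0.70 for Fbxw24, and in fresh oocytes from −0.11 to 0.59 for Fbxo15 and from −0.74 to 0.13 for Fbxw18. Over 81 named results, 2288 recomputed values kept direction and call, 89 lost and 34 gained the call, and 33 turned sign; the cause was not tested. In vitrified oocytes between the stages, plain library sizes turned Fbxo30 (−0.066) and Fbxo34 (−0.023), and genes whole in all MII oocytes turned Fbxo5 (0.055), Fbxw7 (0.10), Fbxw19 (0.59) and Fbxw24 (0.28). limma-voom turned Fbxw19 (0.052), Fbxw20 (0.34) and Fbxw24 (0.0060). Without GV vitrified oocyte 1, Fbxw19 was 0.54, Fbxw20 0.85 and Fbxw24 0.70, and without GV fresh oocyte 3 as well they were 0.62, 0.93 and 0.77. Fbxw20 was also 0.21 with MII library numbers under 20, 0.47 with the replicate block, 0.027 with a filter at 10 CPM, 0.013 without the oocytes high in cumulus markers, and 0.022 and 0.013 without MII vitrified oocyte 1 or 9. In fresh oocytes, genes whole in all MII oocytes turned Fbxo5 (0.044) and Fbxw18 (0.27), and Fbxw18 was 0.13 without GV fresh oocyte 3 and 0.18 without GV vitrified oocyte 1 as well. Fbxo15 was −0.048 with DESeq2, −0.047 with RLE size factors, −0.18 with plain library sizes, −0.35 with MII library numbers under 20, −0.70 with the replicate block, and −0.11, −0.025 and −0.011 without GV fresh oocyte 2 or 4 or MII fresh oocyte 8.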
